A study of Homo sapiens with 4 samples.

Results

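The transcripts of 9 enzymes that make or break heme were followed in K562, a BCR::ABL1-positive human myeloid leukemia line with erythroid features, after transfection of the RUNX1::ERG fusion gene or of its empty vector. The members were ALAS1, ALAS2, ALAD, UROS, UROD, CPOX, PPOX, FECH and HMOX1, found by matching the gene numbers of the count table to symbols, and they were 9 of the 25702 genes listed. The fusion joins the Runt DNA-binding domain of RUNX1 to the Ets domain of ERG. It was delivered in LeGO-iG2, a lentiviral backbone that also encodes GFP, by transient electroporation. The controls received the same plasmid without an insert, and no drug was given to either group. Each group had 2 libraries of poly(A) RNA, described as biological replicates, so that p-values measure the spread between these libraries only. No sorting of GFP-positive cells was stated for the RNA-seq, and each library may hold transfected and untransfected cells.

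Heme is built by a chain of enzymes that starts and ends in the mitochondrion and passes through the cytosol. The first step, in which aminolevulinate synthase joins glycine to succinyl-CoA, sets the rate. It has a housekeeping form, ALAS1, which heme represses, and an erythroid form, ALAS2, which is driven by GATA1 and whose mRNA carries an iron-responsive element that lets iron regulatory proteins block translation when iron is scarce. FECH finally inserts ferrous iron into the porphyrin ring, and heme oxygenase, of which HMOX1 is the inducible form, opens the ring again. Erythroid cells run the chain at a high rate to supply hemoglobin. The synthesis members do not cover every step of the chain.

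None of the 8 members that passed the filter on low counts was called between RUNX1::ERG and empty vector libraries at an adjusted p under 0.05 (edgeR quasi-likelihood test, Benjamini-Hochberg adjustment), against 4.79% of the 15394 genes tested. HMOX1 had too few counts to be tested. The widest differences were those of ALAS2, PPOX and UROD, which were higher in RUNX1::ERG libraries by 36.5%, 35.7% and 25.7% in mean normalized CPM (counts scaled to library size), and of ALAD, which was lower by 26.0%. ALAS1, UROS and CPOX had group means within 2% of each other. The 95% intervals of all 8 tested members stayed inside a log2 fold change of 1 in either direction.

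The labels were checked with the fusion partners. ERG counts were 4 and 4 with empty vector and 80443 and 27218 with the fusion, which corresponds to 0.0664 and 0.0567 against 954 and 379 normalized CPM (adjusted p 1.73e-06, edgeR). RUNX1 stood at 78.6 and 49.0 against 786 and 400 CPM. The first RUNX1::ERG library thus held more than the second of both partner transcripts. Total counts were between 59695387 and 82352144 per library. All 10 markers of K562 erythroleukemia were detected, with sums between 12318 and 14529 CPM, and none was called. Marker sums of other cell types differed between the groups to different extents. Megakaryocyte and platelet markers summed to 74.4 and 85.2 CPM with empty vector and 495 and 433 CPM with RUNX1::ERG, and 6 of 7 tested markers were called higher. Fibroblast markers summed to 6.19 and 6.35 against 24.8 and 22.1 CPM with COL1A1 called higher and LUM at 0 counts. T cell markers, carried by CD3D, summed to 32.9 and 35.0 against 21.3 and 24.1 CPM with CD8A at 0, and none of the 3 tested was called (CD3D adjusted p 0.090, edgeR). B cell and hepatocyte markers stayed under 4 CPM in sum. Hepatocyte markers summed to 1.41 and 0.0567 CPM with empty vector and 3.56 and 0.264 CPM with RUNX1::ERG, higher in the first replicate of both groups. The part of these differences in the results below was not tested. Every library was labelled as K562 cells. In bulk RNA the share of these cells that express a gene and its RNA per cell cannot be told apart.

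The sequence before the start of the 2 synthase genes is shown first, because ALAS2 and ALAS1 catalyse the same reaction under different control. Sequences come from the RefSeq promoter table (GRCh38.p14), were placed in GRCh37, the build of the counts, by exact match, and are written on the transcribed strand up to the base before the RefSeq start. Capitals mark GATAA or its reverse complement TTATC, the core letters bound by GATA factors. The windows lie at chr3:52231849-52232098 (plus strand) for ALAS1 and chrX:55057411-55057660 (minus strand) for ALAS2.
ALAS1: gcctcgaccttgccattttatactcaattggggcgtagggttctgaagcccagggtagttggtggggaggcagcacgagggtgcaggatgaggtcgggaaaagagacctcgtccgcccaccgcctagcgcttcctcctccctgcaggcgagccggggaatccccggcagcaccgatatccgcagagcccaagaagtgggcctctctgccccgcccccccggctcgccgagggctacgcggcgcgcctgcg
ALAS2: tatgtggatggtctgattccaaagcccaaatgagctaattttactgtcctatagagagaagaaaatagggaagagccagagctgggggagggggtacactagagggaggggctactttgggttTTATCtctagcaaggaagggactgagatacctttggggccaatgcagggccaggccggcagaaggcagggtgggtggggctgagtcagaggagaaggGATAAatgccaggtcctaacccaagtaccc
The ALAS1 window held neither spelling. The ALAS2 window held both, TTATC at bases -127 to -123 and GATAA at bases -30 to -26 from the start.

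CPOX is shown because its window was the only other one with 2 matches to these letters. The 200 bases at chr3:98312506-98312705 (minus strand) run from -250 to -51, and the 50 bases nearest the start are left out since the GRCh37 annotation places part of them in the first exon.
CPOX: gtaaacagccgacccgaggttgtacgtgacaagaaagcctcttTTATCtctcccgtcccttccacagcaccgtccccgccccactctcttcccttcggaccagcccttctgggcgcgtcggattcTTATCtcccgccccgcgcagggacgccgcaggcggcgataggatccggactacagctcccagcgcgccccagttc
TTATC stood at bases -207 to -203 and -125 to -121. A window was found for 7 of the 9 members, all but UROS and HMOX1. These members had 9 windows, since ALAD and PPOX each had a second start. Over the 250 bases before any listed start, GATAA on either strand was present in 3 members (ALAS2, CPOX and the second start of PPOX). It was present in 20.4% of all 35116 windows of that length. In this and the following motif counts, members are counted over all their starts but the background by window, so the shares differ in unit. TGTGGT, the Runt letters, occurred in none of the 7 members and in 10.98% of all windows. GGAAG, the core of Ets sites, occurred in 5 members and in 65.1% of all windows. CACCC, the letters of KLF sites, occurred in 4 members and in 54.7% of all windows. These matches describe letters and not binding.

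The ALAS2 mRNA leader also held the loop letters of the iron-responsive element, shown because none of the other members with a window held them. The 23 bases at chrX:55057377-55057399 (minus strand) carry CAGTGC, the loop, in capitals.
ALAS2 leader: gttcgtcctCAGTGCagggcaac
The letters CAGTG began at base 21, counting the start itself as the first base. Among the first 50 bases of the transcribed strand, 1 of the 7 members held CAGTG, as did 6.48% of the 35116 windows.

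**Figure D1:**
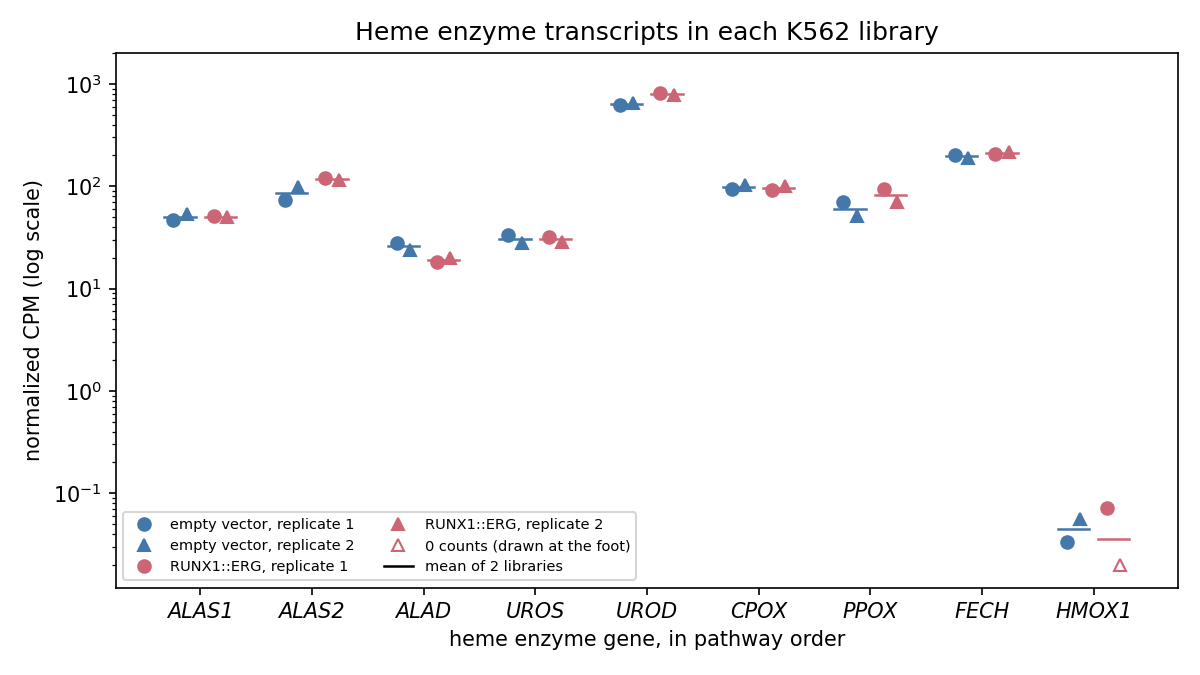
Normalized CPM (log scale, y axis) of the 9 heme enzyme transcripts in pathway order (x axis), with 1 point per library, circles for replicate 1, triangles for replicate 2 and a bar at each group mean of 2 libraries. UROD, at 617 to 810 CPM, was above all other members in each library, HMOX1 lay under 0.1 CPM, and the groups separated without overlap for ALAS2, ALAD, UROD and FECH and by less than 0.01 CPM for PPOX.

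Neither form of the rate-setting synthase was called. ALAS2 (gene 212, chrX:55035488-55057410, minus strand, GRCh37) had 73.8 and 98.2 CPM in the empty vector libraries and 119 and 115 CPM in the RUNX1::ERG libraries. Both RUNX1::ERG libraries lay above both controls, and the controls differed from each other more than the RUNX1::ERG libraries did. The means were 86.0 ± 17.2 and 117 ± 2.83 CPM (SD, n = 2 each), and the log2 fold change was 0.45 (SE 0.18, 95% interval 0.06 to 0.84, unadjusted p 0.0269, adjusted p 0.20, edgeR). Leaving out 1 control moved the ALAS2 estimate most, to 0.25 without empty vector replicate 1 and 0.67 without empty vector replicate 2. ALAS1 (gene 211, chr3:52232102-52248343, plus strand) had 46.3 and 53.9 CPM with empty vector and 50.7 and 49.8 CPM with RUNX1::ERG. Both RUNX1::ERG values lay between the controls. Its log2 fold change was 0.0044 (SE 0.17, 95% interval -0.36 to 0.37, adjusted p 0.99, edgeR), and the sign changed with the library left out.

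The ratio of the synthases was then taken within each library, from levels per kilobase of exon. ALAS2 stood at 1.98 and 2.26 times ALAS1 with empty vector and at 2.92 and 2.87 times ALAS1 with RUNX1::ERG. Both RUNX1::ERG ratios were above both control ratios, by 0.45 on the log2 scale between the means (SD 0.14 and 0.02). A two-sided exact permutation test gave p = 0.333, which is the smallest value that 2 against 2 libraries allow.

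None of the cytosolic enzymes was called. ALAD (gene 210, chr9:116148592-116163570, minus strand), which joins aminolevulinate into porphobilinogen and is the zinc enzyme that lead inhibits, had 28.0 and 23.9 CPM with empty vector and 18.3 and 20.02 CPM with RUNX1::ERG. It was the only member with both RUNX1::ERG libraries below both controls. Its means were 25.9 ± 2.90 and 19.2 ± 1.19 CPM (SD, n = 2 each), with a log2 fold change of -0.44 (SE 0.19, 95% interval -0.85 to -0.02, unadjusted p 0.043, adjusted p 0.26, edgeR). UROS (gene 7390, chr10:127473549-127511827, minus strand), which closes the tetrapyrrole ring, had 33.5 and 27.6 CPM with empty vector and 32.0 and 28.7 CPM with RUNX1::ERG. The UROS values of the 2 groups were interleaved, at a log2 fold change of -0.01 (SE 0.19, 95% interval -0.42 to 0.40, adjusted p 0.99, edgeR).

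UROD (gene 7389, chr1:45476622-45481247, plus strand), which trims the acetate side chains of uroporphyrinogen, was the most abundant member. It had 617 and 643 CPM with empty vector and 810 and 774 CPM with RUNX1::ERG. The gap between the groups was wider than the distance between replicates in either of them. The means were 630 ± 18.6 and 792 ± 25.9 CPM (SD, n = 2 each), and the log2 fold change was 0.33 (SE 0.13, 95% interval 0.03 to 0.63, unadjusted p 0.0319, adjusted p 0.22, edgeR). The UROD estimate stayed between 0.30 and 0.36 when each library was left out. In a fit with a block for the replicate number it was 0.33 (adjusted p 0.043, edgeR). UROD shares 9.31% of its exon bases with HECTD3 on the opposite strand, and the strand setting of the counting is not given in the sources used here. HECTD3, a ubiquitin ligase, had 137 and 152 CPM against 169 and 157 CPM (log2 fold change 0.17, adjusted p 0.63, edgeR), and how many reads the 2 genes share was not tested. Within a library, UROD stood per kilobase at 43.5 and 54.9 times UROS with empty vector and 59.7 and 63.6 times UROS with RUNX1::ERG (two-sided exact permutation p = 0.333). This log2 difference of 0.33 was 0.17 without empty vector replicate 1 and 0.50 without empty vector replicate 2.

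The last 3 steps take place at the inner mitochondrial membrane. CPOX (gene 1371, chr3:98298290-98312492, minus strand), which forms protoporphyrinogen in the intermembrane space, had 93.4 and 102 CPM with empty vector and 91.5 and 101 CPM with RUNX1::ERG. In both groups the second replicate was the higher, and the groups overlapped (log2 fold change -0.02, SE 0.16, 95% interval -0.37 to 0.32, adjusted p 0.96, edgeR). PPOX (gene 5498, chr1:161135846-161147803, plus strand), which oxidises protoporphyrinogen to protoporphyrin, had 69.8 and 51.3 CPM with empty vector and 94.5 and 69.8 CPM with RUNX1::ERG. In PPOX the first replicate was the higher in both groups, and the higher control and the lower RUNX1::ERG library were less than 0.01 CPM apart. Scaled by library totals alone, the PPOX groups overlapped.

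PPOX means were 60.5 ± 13.1 and 82.1 ± 17.5 CPM (SD, n = 2 each), with a log2 fold change of 0.44 (SE 0.20, 95% interval -0.01 to 0.89, unadjusted p 0.055, adjusted p 0.29, edgeR). The PPOX estimate was 0.21 without RUNX1::ERG replicate 1, 0.23 without empty vector replicate 2 and 0.68 without empty vector replicate 1. Leaving out a library also unbalances the difference between replicate numbers, which ran the same way in both groups. In a fit with a block for the replicate number the PPOX estimate was 0.44 (adjusted p 0.049, edgeR). B4GALT3, a galactosyltransferase gene on the opposite strand, shares 23.7% of the PPOX exon bases, and had 89.5 and 98.6 CPM against 89.9 and 89.0 CPM (log2 fold change -0.07, adjusted p 0.87, edgeR). Without the strand setting the reads of this stretch cannot be assigned. Per kilobase, PPOX was 0.499 and 0.337 times CPOX with empty vector and 0.690 and 0.464 times CPOX with RUNX1::ERG, with overlapping groups (two-sided exact permutation p = 0.667). This log2 difference of 0.47 ranged from 0.18 to 0.75 when each library was left out. The first replicate had the higher ratio in both groups, which the permutation test does not take into account.

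FECH (gene 2235, chr18:55211609-55253964, minus strand), the iron-sulfur enzyme that completes heme, had 204 and 187 CPM with empty vector and 208 and 216 CPM with RUNX1::ERG. Both RUNX1::ERG libraries lay above both controls, though the distance from the higher control was smaller than the distance between the controls. Its log2 fold change was 0.12 (SE 0.15, 95% interval -0.21 to 0.44, adjusted p 0.76, edgeR), and was 0.057 without empty vector replicate 2 and 0.17 without empty vector replicate 1. A processed pseudogene, FECHP1, lies on chromosome 3, and how the counting divided reads between the copies is not known.

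**Figure D2:**
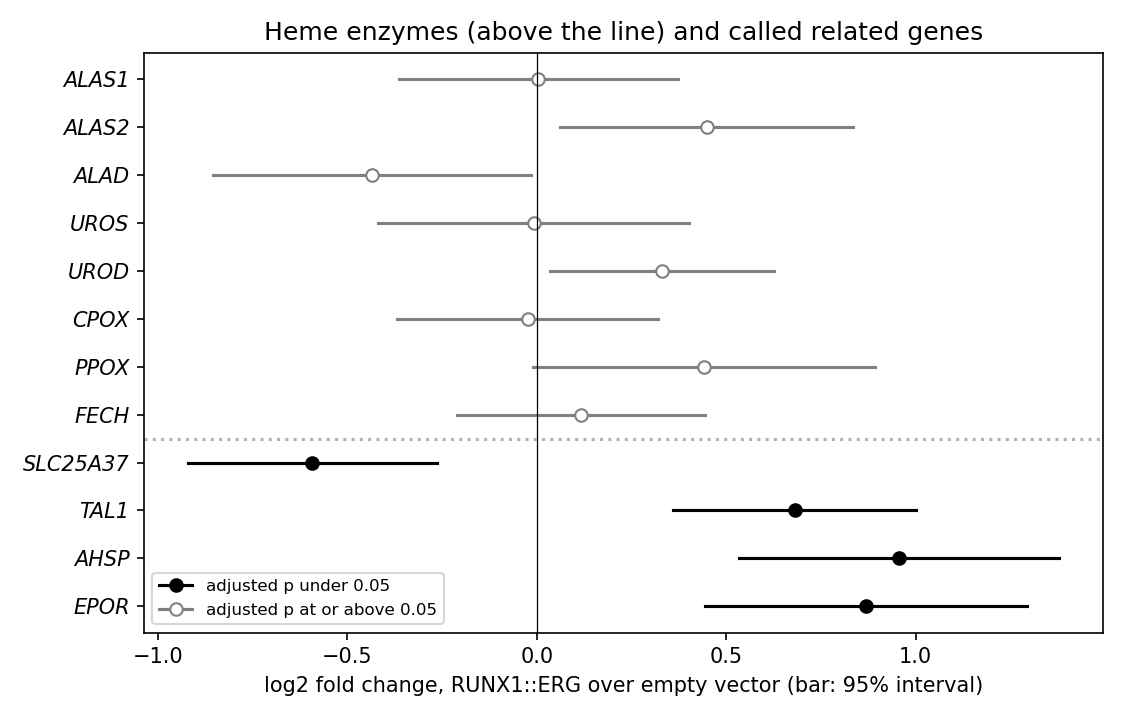
Log2 fold change of RUNX1::ERG over empty vector (x axis) with its 95% interval from edgeR, for the 8 tested heme enzymes (above the dotted line) and the 4 related genes called at an adjusted p under 0.05 (below it, filled points). No heme enzyme was called, with estimates from -0.44 (ALAD) to 0.45 (ALAS2), while SLC25A37 was at -0.59 and TAL1, EPOR and AHSP were between 0.68 and 0.96.

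The members were set against all tested genes. Of the 8, 5 had a positive and 3 a negative log2 fold change, with a median of 0.06 against -0.0017 over all 15394 tested genes. Groups did not overlap with RUNX1::ERG higher for 4 members (ALAS2, UROD, PPOX and FECH), against 25.1% of all tested genes, and with RUNX1::ERG lower for 1 member (ALAD), against 22.1%. PPOX was among the 4 with 69.8014 CPM in the higher control and 69.8029 CPM in the lower RUNX1::ERG library. Scaled by library totals alone, its groups overlapped. An unadjusted p under 0.05 was reached by 3 members (ALAS2, ALAD and UROD), against 18% of all tested genes, and by 2 of the 8 in DESeq2 and 3 in limma voom, neither of which called a member after adjustment. That count of 3 fell to 0 without RUNX1::ERG replicate 1 and to 1 without empty vector replicate 1. These intervals come from the fit without a block for the replicate number. At their size a difference of the width seen for ALAS2 or UROD was not separated from the spread between libraries after adjustment. This does not show that the levels were alike. With that block UROD and PPOX were called (adjusted p 0.043 and 0.049, edgeR) and ALAS2 was not (adjusted p 0.066, edgeR).

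**Figure D3:**
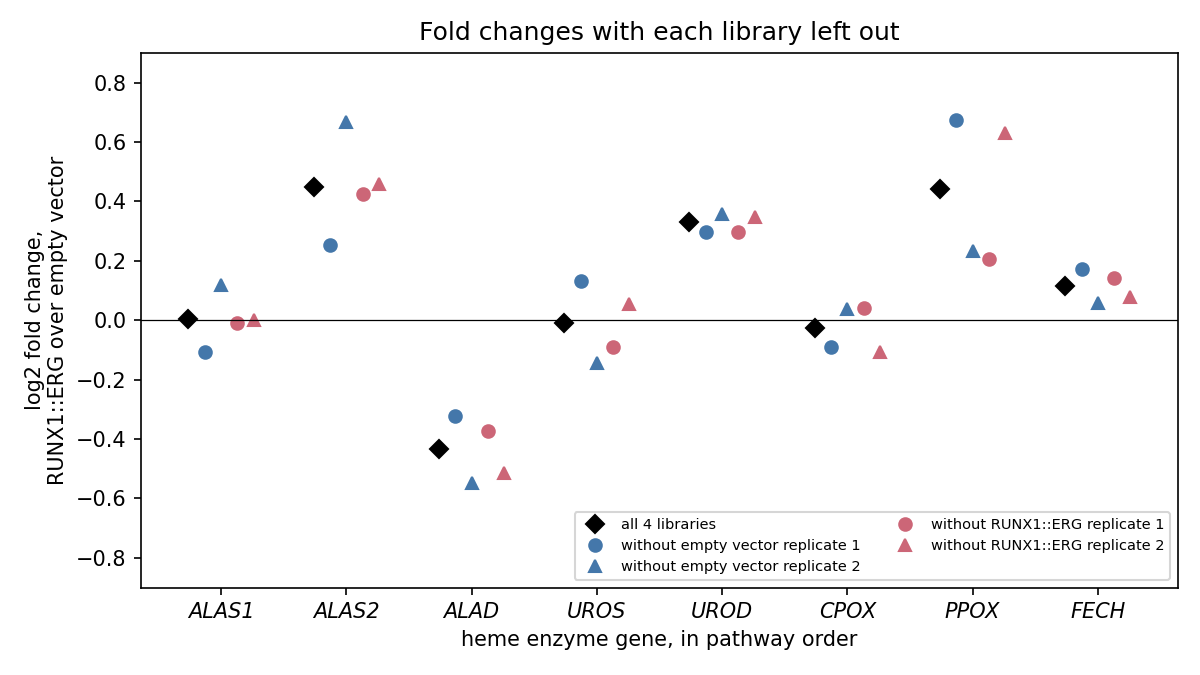
Log2 fold change of RUNX1::ERG over empty vector (y axis) for the 8 tested heme enzymes (x axis), from all 4 libraries (diamonds) and with each library left out in turn (blue for an empty vector library, red for a RUNX1::ERG library). ALAS2, UROD, PPOX and FECH stayed above 0 and ALAD below 0 in every fit, ALAS1, UROS and CPOX crossed 0, and PPOX had the widest range, 0.21 to 0.68.

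Levels were compared between members per kilobase, with the length of all annotated exon bases of a gene joined. In this unit UROD stood at 153 and 160 with empty vector and 201 and 192 with RUNX1::ERG, all in normalized CPM per kilobase. ALAS2 followed at 36.0 and 48.0 against 58.3 and 56.4, then CPOX between 29.0 and 32.3. ALAS1 (18.2 to 21.3), FECH (16.8 to 19.4) and PPOX (10.9 to 19.997) came next, and the ranges of ALAS1 and FECH and those of FECH and PPOX overlapped, so that their order was not resolved. ALAD (3.71 to 5.66) and UROS (2.91 to 3.52) were the lowest of the synthesis enzymes, and HMOX1 did not exceed 0.0309.

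This order depended on the length used. UROS has 9505 joined exon bases but 3188 in its longest coding transcript and 1336 in the Ensembl canonical transcript, and PPOX has 4725 against 1733 in both. With the longest coding transcript or with the canonical transcript, 5 members changed place, PPOX moving up to the third place and UROS passing ALAD. UROD was first and ALAD and HMOX1 were among the last 3 under each of the 3 lengths. UROD made up 53.8 to 56.8% of the summed level of the members by joined exons, 61.9 to 64.3% by the longest transcript and 72.8 to 75.2% by the canonical transcript. The PPOX to CPOX ratio in the first control was 0.499 by joined exons and 1.17 by the longest transcript. The differences between the groups do not depend on length.

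**Figure D4:**
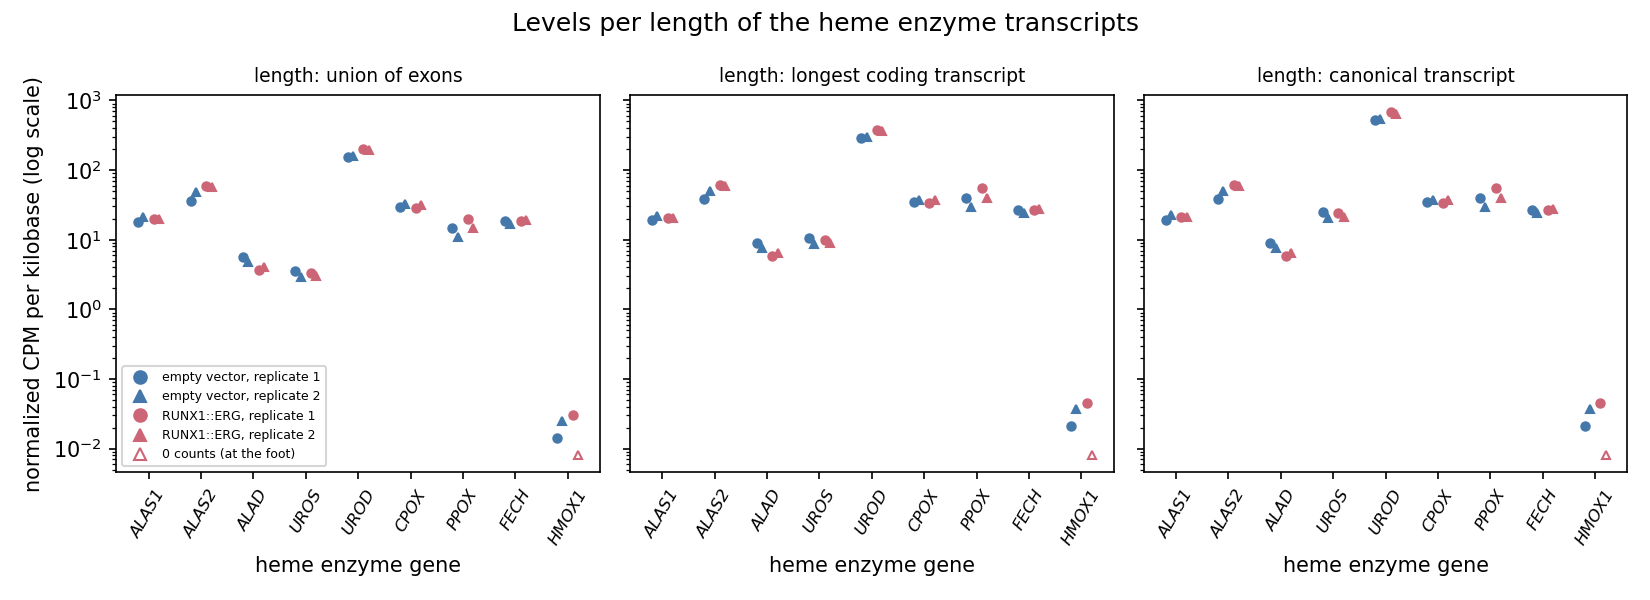
Normalized CPM per kilobase (log scale, y axis) of the 9 heme enzymes in each library, with the length taken as the union of exons, the longest coding transcript or the canonical transcript (panels from left to right), and HMOX1 at 0 counts drawn as an open triangle at the foot. UROD was first in all panels (153 to 201 in the left panel), and HMOX1 was last in all panels.

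On the breakdown side, next to no HMOX1 transcript was counted. HMOX1 (gene 3162, chr22:35776354-35790207, plus strand) had 2 and 4 counts in the empty vector libraries and 6 and 0 in the RUNX1::ERG libraries. That is 6 of 132898799 counts with empty vector, or 0.0451 CPM (exact Poisson 95% interval 0.0166 to 0.0983), and 6 of 153934233 counts with RUNX1::ERG, or 0.0390 CPM (0.0143 to 0.0848). These intervals cover counting error only and take every count as a separate event. The mate setting of the counting is not given. Were both mates of a pair counted, the intervals would be too narrow. A count of 0 in the second RUNX1::ERG library allows up to 0.0419 CPM. The groups could not be told apart at this depth. HMOX2, the constitutive oxygenase, had 14578 counts over the 4 libraries against 12 for HMOX1. Monocyte and macrophage markers, cells in which HMOX1 is inducible, summed to 8.003 and 10.8 CPM with empty vector and 22.4 and 20.8 CPM with RUNX1::ERG, with CD14 and LYZ called higher, CD163 and MARCO at 0 counts and 6 of 8 markers under 1 CPM in every library.

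None of the 3 partners in heme breakdown was called. HMOX2 had 46.0 and 64.9 CPM with empty vector and 44.7 and 48.2 CPM with RUNX1::ERG (log2 fold change -0.26, SE 0.19, adjusted p 0.56, edgeR). The HMOX2 difference rests on the second control, since it was 0.01 without empty vector replicate 2. BLVRA, which reduces biliverdin to bilirubin, stayed between 54.5 and 57.1 CPM in all 4 libraries (log2 fold change 0.03, adjusted p 0.96, edgeR). Per kilobase of joined exon, HMOX2 was at 13.2 to 19.2, BLVRA at 29.9 to 31.3 and BLVRB, a flavin reductase that also reduces biliverdin, at 242 to 284 CPM. BLVRB was named as the remaining gene of its list after its values were seen.

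Heme and its precursors cross several membranes, and 13 of the 14 listed transport genes were tested. Of these, 1 was called lower and none higher, and the log2 fold changes had a median of -0.11, against -0.0017 and 4.79% called over all tested genes. The gene called was SLC25A37 (mitoferrin-1), which brings iron into the mitochondria of erythroid cells for FECH. It had 205 and 198 CPM with empty vector and fell to 136 and 131 CPM with RUNX1::ERG. Replicates lay close together and the groups far apart, at a log2 fold change of -0.59 (SE 0.15, 95% interval -0.92 to -0.26, adjusted p 0.048, edgeR). The call is at the threshold. With each library left out, the SLC25A37 estimate stayed between -0.62 and -0.57, but the adjusted p was 0.088 or 0.051 when the first or the second control was omitted and 0.19 when either RUNX1::ERG library was. It was 0.059 under scaling by library totals and 0.052 under the filter that keeps genes with 10 counts or more in all 4 libraries. ABCB10, a mitochondrial transporter that stabilises mitoferrin-1, was looked at after the values were seen. It had 150 and 137 CPM against 101 and 114 CPM (log2 fold change -0.42, adjusted p 0.18, edgeR), without overlap but not called.

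None of the 12 tested genes for turnover of aminolevulinate synthase, heme sensing and heme handling was called. An unadjusted p under 0.05 was reached by 4, beside 18% of all tested genes, and the list's median log2 fold change was -0.18, against -0.0017 over all tested genes. BACH1, the heme-sensing repressor of HMOX1, had the highest estimate of the list, with 75.0 and 72.1 CPM against 79.6 and 98.6 CPM (log2 fold change 0.28, adjusted p 0.44, edgeR). The BACH1 estimate rests on the second RUNX1::ERG library, and was 0.099 without it and 0.42 without the first. NR1D2, a heme-binding nuclear receptor, had the lowest estimate, with 9.41 and 8.54 CPM against 3.99 and 6.23 CPM (log2 fold change -0.81, adjusted p 0.14, edgeR). NR1D2 passed the threshold without empty vector replicate 2 (log2 fold change -0.88, adjusted p 0.040, edgeR), was at -0.53 (adjusted p 0.63) without RUNX1::ERG replicate 1, and at -1.18 (adjusted p 0.051) when the second RUNX1::ERG library was omitted. LONP1, the mitochondrial protease that degrades ALAS1 when heme is plentiful, was added after the values were seen, with 482 and 351 CPM against 278 and 268 CPM (log2 fold change -0.61, adjusted p 0.076, edgeR). Both RUNX1::ERG values of LONP1 were below both controls.

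Users of heme and of iron were also uncalled. Among 3 genes of heme modification and attachment, HCCS, which attaches heme to cytochrome c, had a log2 fold change of 0.05 (-0.03 without empty vector replicate 1) and COX10, which farnesylates heme for cytochrome oxidase, -0.19. Among 14 genes of iron-sulfur cluster assembly, on which FECH depends for its cluster, estimates ran from -0.41 for LYRM4, a partner of the cysteine desulfurase, to 0.33 for ISCA1, a late-acting assembly factor, with a median of -0.02. The iron regulatory proteins that bind the leader of ALAS2, IREB2 and ACO1, were named for that role after their values were seen. IREB2 had 146 and 160 against 135 and 169 CPM, and ACO1 49.0 and 58.6 against 49.5 and 59.1 CPM, with the second replicate higher in both groups and the groups interleaved in both genes.

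The list of iron regulatory proteins and cellular iron held 8 tested genes and no call, with a median of 0.00. FTL, the ferritin light chain, had 1860 and 1907 CPM against 2282 and 2089 CPM (log2 fold change 0.21, adjusted p 0.41, edgeR). TFRC, the transferrin receptor, had 709 and 1275 CPM against 570 and 764 CPM (log2 fold change -0.57, adjusted p 0.24, edgeR). The controls of TFRC differed widely, and the second RUNX1::ERG library lay between them. The TFRC estimate was -0.94 without the first control, -0.82 without the second RUNX1::ERG library and -0.09 without empty vector replicate 2. TFRC was called lower with no filter on low counts (adjusted p 0.0050, edgeR) and with a replicate block (adjusted p 0.014, edgeR). No other fit of all 4 libraries called it.

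Other targets of BACH1 and NRF2, the pair that switches HMOX1, were tested as 10 genes with no call and a median log2 fold change of 0.03. An unadjusted p under 0.05 was reached by 4, beside 18% of all tested genes. These were SLC7A11, lower with RUNX1::ERG, and OSGIN1, PIR and ME1, higher. PIR and ME1 were named after their values were seen. OSGIN1, an oxidative stress gene, had 5.43 and 6.21 CPM against 9.04 and 9.01 CPM (log2 fold change 0.63, adjusted p 0.18, edgeR). SLC7A11, the cystine transporter, had 104 and 17.0 CPM with empty vector and 13.8 and 18.3 CPM with RUNX1::ERG, so that a single control stood above the other 3 libraries. Its log2 fold change of -1.91 (adjusted p 0.098, edgeR) was -0.09 without empty vector replicate 1. It was -2.69 without the second control and -2.13 without the second RUNX1::ERG library. With no filter on low counts SLC7A11 was called lower (adjusted p 7.8e-18, edgeR). No other fit of all 4 libraries called it.

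The erythroid list gives the setting in which ALAS2 is normally expressed. Of its 17 genes, all tested, 3 were called higher and none lower, beside 4.79% of all tested genes called. An unadjusted p under 0.05 was reached by 7, beside 18% of all tested genes. Among these 7, HBZ and SLC4A1 were lower with RUNX1::ERG and the rest higher. SLC4A1 was named after its values were seen (log2 fold change -0.59, adjusted p 0.17, edgeR). The median log2 fold change of the list was 0.27, against -0.0017 over all tested genes. AHSP, the chaperone of free alpha globin, had 15.9 and 15.4 CPM with empty vector and 33.2 and 27.6 CPM with RUNX1::ERG (log2 fold change 0.96, SE 0.19, adjusted p 0.018, edgeR). EPOR, the erythropoietin receptor, had 41.6 CPM in both controls and 89.1 and 62.8 CPM with RUNX1::ERG (log2 fold change 0.87, SE 0.19, adjusted p 0.030, edgeR). TAL1, a regulator of erythroid and megakaryocytic genes, had 197 CPM in both controls and 323 and 308 CPM with RUNX1::ERG (log2 fold change 0.68, SE 0.15, adjusted p 0.025, edgeR). In these 3 genes the controls lay together and both RUNX1::ERG libraries above them.

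Without RUNX1::ERG replicate 1 none of the 3 passed the threshold (edgeR). The log2 fold change was then 0.82 for AHSP (adjusted p 0.14), 0.64 for TAL1 (adjusted p 0.14) and 0.59 for EPOR (adjusted p 0.25). TAL1 was at 0.70 (adjusted p 0.054) without RUNX1::ERG replicate 2. GATA1 and KLF1, the central erythroid transcription factors, and HBZ, the embryonic zeta globin, were added after their values were seen. GATA1 had 270 and 263 against 302 and 256 CPM, and KLF1 187 and 248 against 210 and 190 CPM, both with interleaved groups. HBZ had 966 and 1100 CPM against 753 and 615 CPM, lower with RUNX1::ERG and just short of a call (log2 fold change -0.59, adjusted p 0.05003, edgeR).

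Over all 8 related lists, which held 82 genes, 80 were tested, 3 were called higher and 1 lower. That is a share close to the 4.79% called over all tested genes, and the erythroid list was the only one of the 8 with more than 1 call. The genes whose profile over the 4 libraries lay nearest to that of ALAS2, the member with the widest fold change, were RAB11FIP3, BAMBI and FAHD1, at Euclidean distances of 0.0387, 0.0435 and 0.0464 on the centred log2 scale among 9065 genes with a mean of at least 10 CPM. RAB11FIP3, an effector of RAB11 in membrane recycling, had 18.0 and 23.7 CPM with empty vector and 28.4 and 28.2 CPM with RUNX1::ERG. BAMBI, a decoy receptor of TGF-beta signaling, had 23.6 and 31.4 against 38.6 and 38.5 CPM. FAHD1, a mitochondrial oxaloacetate decarboxylase, had 16.6 and 22.0 against 26.4 and 25.1 CPM. Like ALAS2, each had the first control lowest, the second control next and both RUNX1::ERG libraries above. With 4 libraries as points such likeness is a description only.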

How the data were processed

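Poly(A) mRNA libraries of 4 K562 samples (2 with empty vector, 2 with RUNX1::ERG) were sequenced, and the authors deposited raw gene counts for each library. The submitters' processing notes name HISAT2 2.2.1, featureCounts 2.0.1 and hg19. The strand and mate settings of the counting are not given in the sources used here. Among genes with 1 to 10 counts, 66.7 to 68.9% of the counts were even, and halved counts were therefore tried as an alternative. Symbols were matched from NCBI gene numbers (92.2% of 25702 genes).

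The members and lists were chosen with earlier results of these data known. Counts were filtered with filterByExpr, scaled by TMM and tested with edgeR 4.0.16 in R 4.3.3 (quasi-likelihood, 2 against 2 libraries, Benjamini-Hochberg, adjusted p 0.05), and the test was checked on simulated data. Normalized CPM are counts relative to the TMM-scaled library size. DESeq2 (the study's tool, run here as version 1.42.0), limma 3.58.1 voom, other scalings and filters, a block for the replicate number and each library left out were the alternatives. Replicates differed by more than sampling noise (chi-square per degree of freedom 88.7 and 67.6). Genes named were the 9 members, the genes called in each list or, where none was, its highest and lowest estimate, the 3 nearest profiles of ALAS2, and ERG and RUNX1. Genes of those lists named for another reason are marked. No nearest profile or ratio was computed for HMOX1, which had at most 6 counts in a library. The floor of a count of 0 was taken as 3 counts.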

Additional observations from a re-analysis of the deposited data

How the results depend on the processing

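No member was called in edgeR under any scaling, filter, halving of counts, DESeq2, limma voom or omitted library (0 throughout). With a replicate block 2 members were called (UROD, adjusted p 0.043, and PPOX, adjusted p 0.049, edgeR), as were 10 related genes and 1733 of all genes (11.3% of those tested), against 0, 4 and 737 without it. Deviations of same-numbered libraries correlated at r = 0.35 over 15394 genes. No label ties a number to a batch, and with 2 pairs what same-numbered libraries share beyond the number is not known. Related calls were 10 with no filter and 0 (without RUNX1::ERG replicate 1) to 6 with each library left out. Calls over all genes were 1500 with no filter, 1194 with DESeq2, and 286 (without RUNX1::ERG replicate 1) to 1336 (without empty vector replicate 2) with each library left out, with 1227 without empty vector replicate 1. Of the 737 calls 76.0% were higher with RUNX1::ERG, against 64.1% with no filter, 66.7% with DESeq2, 62.4% with the block and 54.9% without empty vector replicate 2, and against 83.3% with library totals, 79.7% without RUNX1::ERG replicate 1 and 77.8% with limma voom. Estimates near 0 changed sign. ALAS1 was -0.0081 with DESeq2 size factors, -0.0073 with no filter and -0.0099 in DESeq2. UROS was 0.029 with library totals and 0.00099 in limma voom, and CPOX 0.017 with library totals. With each library left out they ran from -0.11 to 0.12 (ALAS1), -0.14 to 0.13 (UROS) and -0.11 to 0.042 (CPOX), BLVRA from -0.0011 to 0.051, HMOX2 from -0.49 to 0.013 and HCCS from -0.032 to 0.14. The order per length moved 5 members with the longest coding transcript, 5 with the canonical transcript (chosen after seeing the data), 2 within empty vector replicate 1 and 3 within RUNX1::ERG replicate 1. The cause of these shifts was not tested. A fit without 1 library has 1 residual degree of freedom and assumes that the lone library varies like the other group. Among the members only HMOX1 had too few counts to be tested.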
